A study of Mus musculus with 4 samples.

Results

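Groups of neighbouring p63 peaks were described in chromatin from primary epithelial progenitor cells of the salivary gland of adult mice. A group was a chain of at least 2 peaks of the p63 list in which each peak lay at most 10000 bases, edge to edge, from the next on the same chromosome. The groups were thus chosen by the positions of the p63 peaks alone, so their sizes and spacing are a description of that choice, whereas H3K27ac was not used to choose them. Of 4130 p63 peaks, 16 in the windows chr9:3.0-3.1 Mb and chr2:98.5-98.6 Mb were left out. Of the remaining 4114 peaks, 587 (14.3%, Wilson 95% interval 13.2 to 15.4%) formed 276 groups, and 3527 stood alone and are called single peaks. This interval is too narrow, since it treats peaks as independent, although peaks enter a group only together.

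The material was 4 chromatin immunoprecipitation sequencing (ChIP-seq) libraries, 1 each of p63 ChIP, p63 input, H3K27ac ChIP and H3K27ac input. All came from mice 12 weeks old that carry wild-type p63, with no treatment named. Strain and number of mice are not stated in the sources at hand. The p63 ChIP used the monoclonal antibody 4A4. Each mark has 1 ChIP library and 1 input library, with no replicates. The deposited peak lists (183757 peaks for H3K27ac), on the mouse build mm9, hold no score and no read depth. The cell type could not be checked against its markers, because no mm9 gene annotation was used here, and regions are given by position only. Starts are counted from 1.

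p63, encoded by Trp63, is a transcription factor related to p53, found in the basal layer of epithelia, where it maintains progenitor cells. It binds DNA as a tetramer, often at enhancers, and several binding sites can lie within 1 enhancer or in neighbouring enhancers of the same gene. H3K27ac, acetylation of lysine 27 of histone H3, is laid down by the acetyltransferases p300 and CBP at active promoters and enhancers. Closely packed acetylated enhancers are often treated as 1 regulatory domain.

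Most groups were pairs. There were 247 groups of 2 p63 peaks (89.5%), 26 groups of 3 (9.42%), 2 groups of 4 and 1 group of 7. Measured from the first start to the last end, a group spanned a median of 4323 bases (quartiles 1761 and 7095), the shortest 318 and the longest 18436. Groups of 2 had a median span of 3519 bases, and the 29 larger groups 10165. Together the groups spanned 1.31 Mb. The p63 peaks inside them were about as wide as single ones, with medians of 185 (quartiles 147 and 231) and 181 bases (quartiles 144 and 219).

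Within groups, neighbours were often very close. The 311 gaps between neighbours had a median of 3294 bases (quartiles 1180 and 6032), against 234760 for neighbours in the whole list. This contrast is set by the limit that defines the groups, because longer gaps cannot occur within a group. It is thus no finding about the groups. Of the 311 gaps, 69 (22.2%) were at most 1000 bases, 41 at most 500 and 19 at most 200. The share at most 1000 bases was 34.3% with a limit of 5000 bases and 13.5% with a limit of 20000, since the limit sets which gaps are counted. It was 17.1% with p63 peaks at most 200 bases apart merged first, a step that by itself removes the gaps of at most 200 bases. Counted per kb of gap, there were 69 pairs of neighbours under 1 kb, 39.0 per kb from 1 to 3 kb, 23.4 from 3 to 10 kb and 19.9 from 10 to 20 kb. Gaps under 1 kb were 3.47 times as frequent as those from 10 to 20 kb, and gaps from 3 to 10 kb 1.18 times. From 3 to 10 kb the count in single 1 kb bins ran from 17 to 32, and from 10 to 20 kb from 14 to 29, so these ranges overlap. The last bin inside the 10 kb limit that defines the groups held 20 pairs and the first bin beyond it 21.

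**Figure D1:**
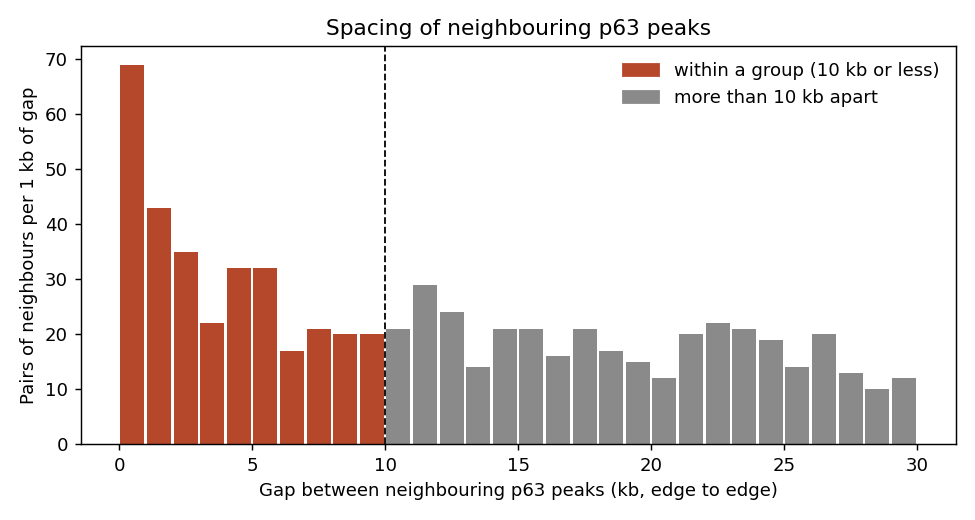
Number of pairs of neighbouring p63 peaks (vertical axis) in each 1 kb bin of the gap between them (horizontal axis, kb), up to 30 kb. Red bars are pairs inside groups, grey bars are pairs farther apart, and the dashed line is the 10 kb limit; the first bin holds 69 pairs and the bins from 3 to 20 kb hold 14 to 32.

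The closest neighbours lay at chr11:16704179-16704304 and chr11:16704363-16704496, 58 bases apart, with no H3K27ac peak inside the group. The next pair, 59 bases apart, was chr4:117795758-117796264 and chr4:117796324-117796458, of which the first peak overlapped H3K27ac. Another pair, 62 bases apart at chr12:70639101-70639325 and chr12:70639388-70639586, lay whole under H3K27ac. Just inside the limit were pairs with gaps of 9796 (chr13), 9837 (chr10) and 9998 bases (chr4), with 17.5%, 10.4% and 2.98% of their span under H3K27ac. Just outside it were pairs with gaps of 10013 (chr15), 10022 (chr1) and 10050 bases (chr3), with 0%, 7.33% and 15.4%.

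Groups lay on each of the 19 autosomes and on chromosome X. The 19 autosomes had 14.2% ± 3.49 (SD across autosomes) of their p63 peaks in groups, from 7.44% on chromosome 10 (8 groups) to 20.4% on chromosome 4 (27 groups). Wilson 95% intervals were 4.63 to 11.7% for chromosome 10 and 16.0 to 25.5% for chromosome 4, which did not overlap, although these chromosomes are the extremes of 19. The intervals treat peaks as independent, although peaks enter a group only together, so they are too narrow. Chromosome X had 2 groups. Around a group, the next p63 peak lay a median of 72135 bases away. For 38 groups it was within 20000 bases and for 8 groups farther than 1000000.

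The group with the most p63 peaks, chr1:195334554-195352989, held 7 peaks and 14 H3K27ac peaks over 18436 bases. H3K27ac covered 12429 of these bases (67.4%), the most of any group, against 13.6% of the flanks, which here are the stretches of the same length on either side. The first p63 peak, chr1:195334554-195334699, lay inside an H3K27ac peak of 3582 bases. The following pair, chr1:195340223-195340392 and chr1:195340633-195340820, were 240 bases apart and both met the H3K27ac peak chr1:195340289-195340714. The next pair, at chr1:195344222-195344410 and chr1:195346239-195346521, were covered by H3K27ac over 60.3% and 13.4% of their length. The peak after these, chr1:195348361-195348604, lay inside an H3K27ac peak of 2696 bases. The last, chr1:195352751-195352989, lay in no H3K27ac peak and 150 bases from the nearest. Gaps in the group ran from 240 to 5523 bases.

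The groups of 4 were less covered. At chr18:80307611-80315512, 10 H3K27ac peaks covered 61.2% of 7902 bases, against 12.7% of the flanks. The first pair of its p63 peaks, 1047 bases apart, lay inside H3K27ac peaks of 567 and 1173 bases, whereas the other pair missed H3K27ac by 15 and 178 bases. At chr17:46746752-46761681, 13 H3K27ac peaks covered 38.2% of 14930 bases, against 9.16% of the flanks, and 3 of its 4 p63 peaks overlapped H3K27ac. Here the p63 peaks formed 1 close pair, 328 bases apart, followed by a gap of 9772 bases.

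**Figure D2:**
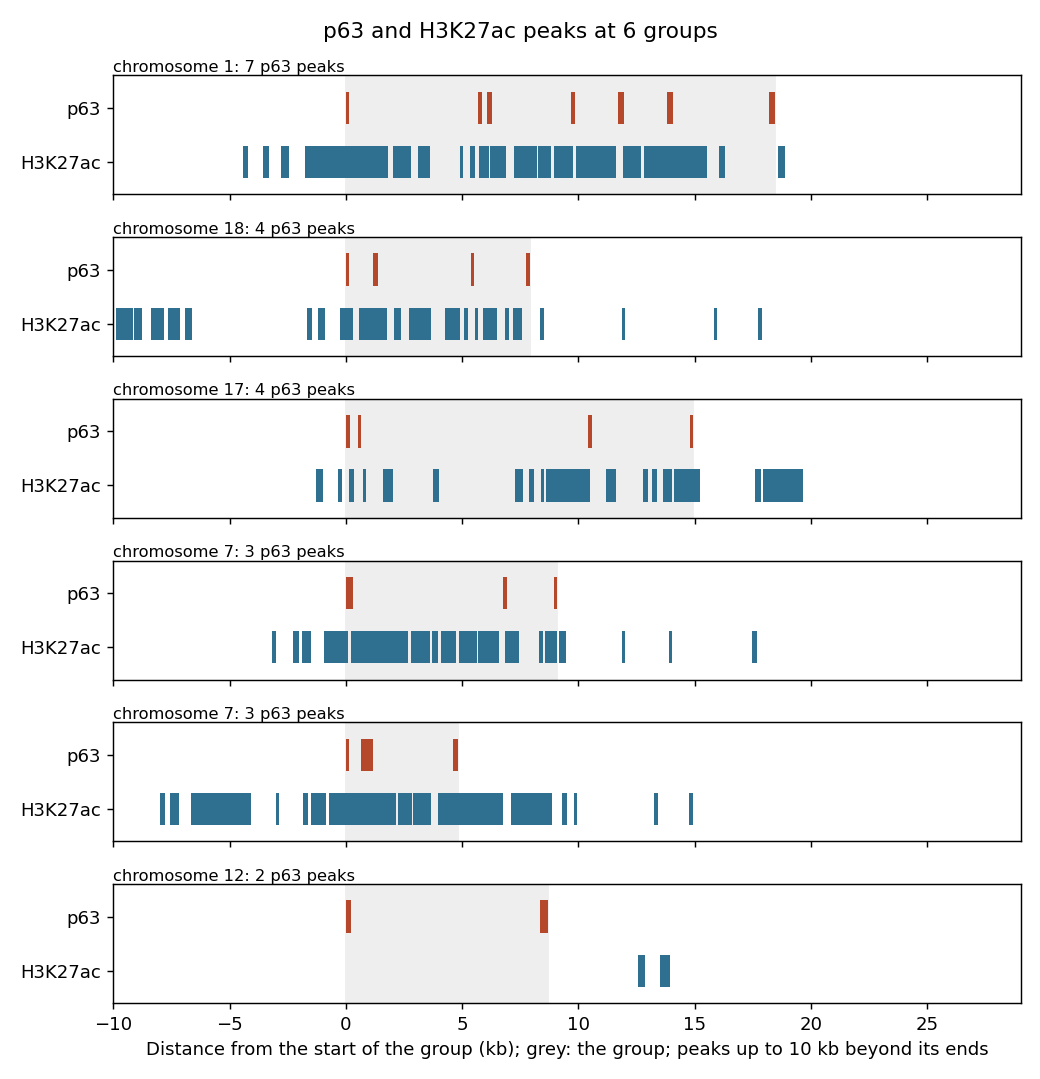
p63 peaks (red) and H3K27ac peaks (blue) at 6 groups, drawn to scale along the distance from the start of each group (kb); grey marks the group and H3K27ac is drawn up to 10 kb beyond its ends. The panels show the groups of 7 and 4 p63 peaks, the group of 3 with the most H3K27ac bases, the group of 3 with the highest coverage and the longest group with no H3K27ac inside, where both p63 peaks stand without H3K27ac between them.

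Among the 26 groups of 3, spans ran from 2784 to 17802 bases and H3K27ac coverage from 2.14% to 90.7%. In 14 of them the larger gap was at least 3 times the smaller. All 3 p63 peaks overlapped H3K27ac in 7 groups, 2 in 7 groups, 1 in 6 groups and none in 6. The highest coverage was at chr7:26060108-26064918, where the first and second p63 peaks shared an H3K27ac peak of 2896 bases, the last lay inside one of 2806 bases, and the flanks were 66.2% covered. At chr7:56808918-56818006 the coverage was 79.2% and the flanks 14.0%, and at chr12:11394857-11397640 it was 83.9% and 22.7%. At chr17:29227771-29231528 it was 75.6% and 34.3%. In each of these 4 groups every p63 peak overlapped H3K27ac, but they were picked for high coverage, which makes such overlap likely. The p63 peak chr12:11396051-11396270 was covered over only 1.36% of its length.

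Some groups of 2 held as many H3K27ac bases as larger ones, although the typical group of 2 held fewer. Groups of 2 had medians of 729 H3K27ac bases and 2 H3K27ac peaks. Groups of 3 or more, which span more, had 2336 and 6. After the group of 7, the most H3K27ac bases were in the pair at chr19:9062201-9072265, where 7 H3K27ac peaks covered 9448 bases (93.9%). The pair at chr19:5837905-5846983 had 7327 bases (80.7%), the group of 3 at chr7:56808918-56818006 7200, and the pair at chr9:106273487-106281447 6504 bases (81.7%). In each of these groups every p63 peak overlapped H3K27ac, which their choice by H3K27ac bases makes likely. The first p63 peak of the pair on chromosome 9 lay inside an H3K27ac peak of 6859 bases.

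Across all 276 groups, acetylation was present in most and varied widely in amount. An H3K27ac peak lay at least in part inside 252 groups (91.3%, Wilson 95% interval 87.4 to 94.1%). The same share was not counted for stretches of equal length elsewhere, such as the flanks. The 91.3% is thus not shown to be particular to groups. The median group held 2 H3K27ac peaks (quartiles 1 and 4, highest 15) and 772 H3K27ac bases. H3K27ac covered a median of 29.6% of a group (quartiles 8.30 and 55.5%), at least 50% of 82 groups and the whole of 8. In all, 855 H3K27ac peaks (0.465% of the list) lay at least in part inside groups. Pooled over all groups, 26.9% of bases were under H3K27ac, against 17.3% of the flanks and 1.87% of the chromosomes from first to last peak.

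Coverage inside was higher than in the flanks for 175 groups, lower for 90 and equal for 11, of which 8 had none in either. The median difference was 6.40 percentage points (quartiles -3.74 and 22.3). Among the 29 groups of 3 or more p63 peaks, 25 were above their flanks, with a median difference of 17.9 points, and among the 247 groups of 2, 150 were, with 4.98 points. Coverage inside was itself lower in the larger groups, with a median of 24.6% against 30.2% in groups of 2, and so was that of their flanks, with 12.3% against 17.3%. The flanks of the larger groups also reached farther, since flanks have the length of the group. The median difference over all groups was above 0 in all 11 alternatives, but its size depended on the flanks, the neighbour limit and the p63 peaks used. It was 15.8 points with flanks of 10000 bases and 14.3 with flanks that start 1000 bases from the group. It was 2.96 points with neighbours at most 20000 bases apart and 12.9 with only the widest 50% of p63 peaks.

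**Figure D3:**
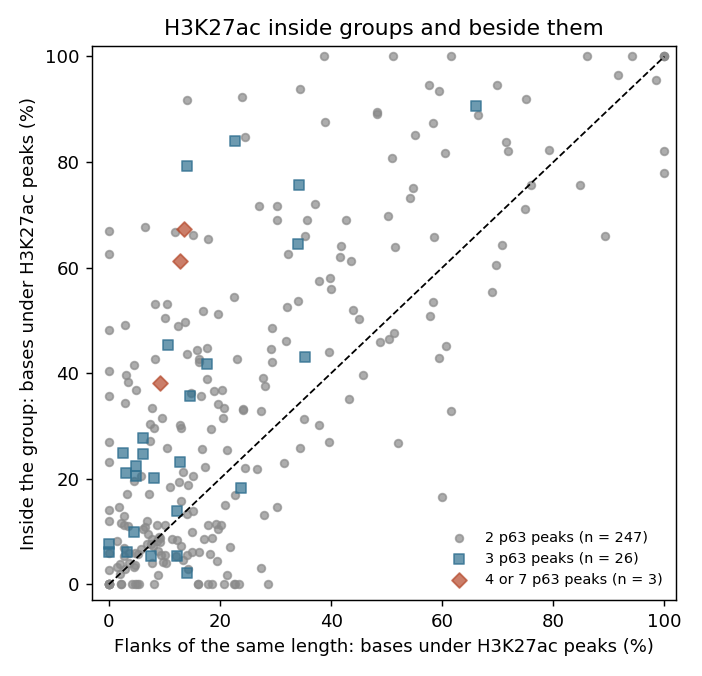
Each point is 1 of 276 groups, with the percentage of its bases under H3K27ac peaks (vertical axis) against the same in the flanks of equal length (horizontal axis); the dashed line marks equal values. Points above the line (175 groups) outnumber those below it (90), and 25 of the 29 groups with 3 or more p63 peaks lie above.

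A group is bounded by p63 peaks at both ends, while its flanks reach away from them, so coverage was also compared at equal distances from the end peaks. There, the gap side and the outer side differed little, by -1.07 percentage points (gap side minus outer side) in the nearest stretch. Within 250 bases of the end peaks, 44.7% of bases on the gap side and 45.8% on the outer side were under H3K27ac (236 groups whose first and last gaps are long enough to hold this stretch from both ends). From 500 to 1000 bases the values were 28.4% and 29.6% (170 groups), and from 1000 to 2000 bases 16.7% and 15.9% (120 groups). In the nearest stretch the gap side was higher in 97 groups and lower in 103. With only the widest 50% of p63 peaks the gap side within 250 bases was lower by 5.81 percentage points, and with H3K27ac peaks joined within 1000 bases it was higher by 0.635.

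H3K27ac coverage beside groups was higher than beside all single p63 peaks together, out to 50000 bases. On the outer side, 46.4% of bases within 250 bases of a group were under H3K27ac, against 26.5% beside single peaks, 1.75 times as much. The ratio was 1.99 from 1000 to 2000 bases (18.6% and 9.34%), 2.02 from 5000 to 10000 bases (10.4% and 5.16%) and 1.53 from 20000 to 50000 bases (6.61% and 4.33%). All 276 groups and 3527 single peaks were used at every distance, so beyond 10000 bases the stretches can hold further p63 peaks. The next p63 peak lay within 50000 bases of 105 groups. For single peaks, it lay at up to 20000 bases for 346 and from there to 50000 bases for 674. Both sets lay above the 1.87% of the chromosomes at every distance measured. Single peaks were not alike in this. Within 1000 bases on each side, coverage was 29.7% for single peaks with a neighbour at up to 20000 bases, near the 33.9% of grouped peaks whose nearest neighbour lay over 3000 bases away, and 11.4% for those with none within 1000000. No test was made of these differences, since the peaks come from 1 library.

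**Figure D4:**
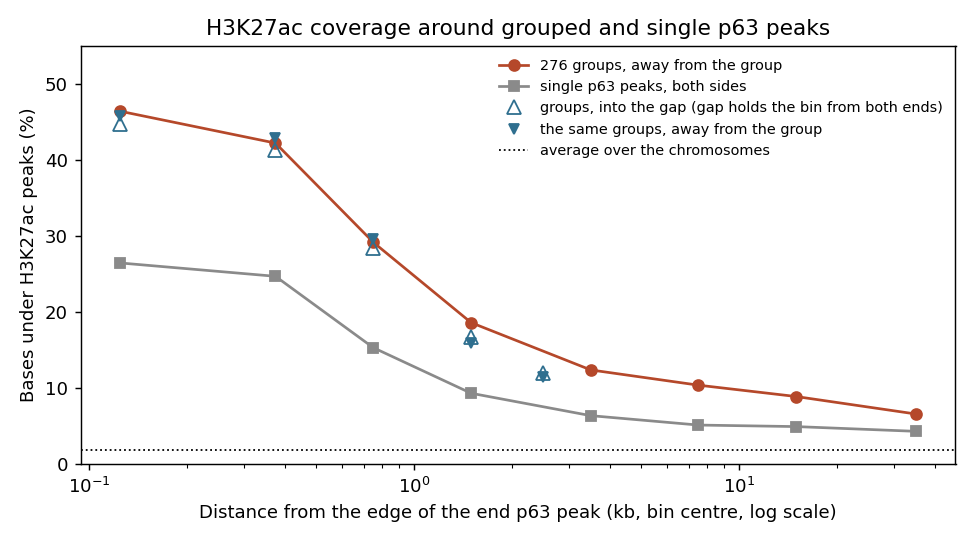
Percentage of bases under H3K27ac peaks (vertical axis) by distance from the edge of the end p63 peak (horizontal axis, kb, log scale, points at bin centres). Groups (red) lie above single p63 peaks (grey) from 46.4% against 26.5% at the peak to 6.61% against 4.33% at 20 to 50 kb, the blue triangles compare the gap side with the outer side of the same groups, and the dotted line is the average of 1.87%.

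Seen by single peaks, grouped p63 peaks met H3K27ac more often than single ones. Of all 4114 p63 peaks, 35.0% overlapped an H3K27ac peak by 1 base or more. In groups it was 315 of 587 (53.7%, Wilson 95% interval 49.6 to 57.7%) and among single peaks 1124 of 3527 (31.9%, interval 30.4 to 33.4%). At most 1000 bases from an H3K27ac peak lay 68.7% of all p63 peaks, 507 of the grouped ones (86.4%) and 2318 of the single ones (65.7%). Farther than 10000 bases from H3K27ac were 10 grouped peaks (1.70%) and 299 single ones (8.48%). The intervals cover counting error only and treat peaks as independent, although the peaks of a group share their surroundings.

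The overlap was similar in small and large groups and lower where neighbours were farther apart. In groups of 2, 53.2% of p63 peaks overlapped H3K27ac, and in groups of 3 or more 55.9% (interval 45.8 to 65.6%, which holds the first value). By distance to the nearest other p63 peak, 68.0% of 100 peaks overlapped where it lay over 200 and up to 1000 bases away, 60.7% of 150 at up to 3000 bases and 43.8% of 299 at up to 10000 bases. The 38 peaks with a neighbour at most 200 bases away had 65.8% (interval 49.9 to 78.8%). Among single peaks the share was 40.5% of 346 peaks with a neighbour at up to 20000 bases, 39.8% of 674 at up to 50000 bases, 31.6% of 1237 at up to 200000 bases and 19.2% of 177 beyond 1000000 bases. The classes on either side of the 10 kb limit, with 43.8% (interval 38.3 to 49.5%) and 40.5% (interval 35.4 to 45.7%), had overlapping intervals. Median p63 peak widths in these classes lay between 171 and 192 bases.

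**Figure D5:**
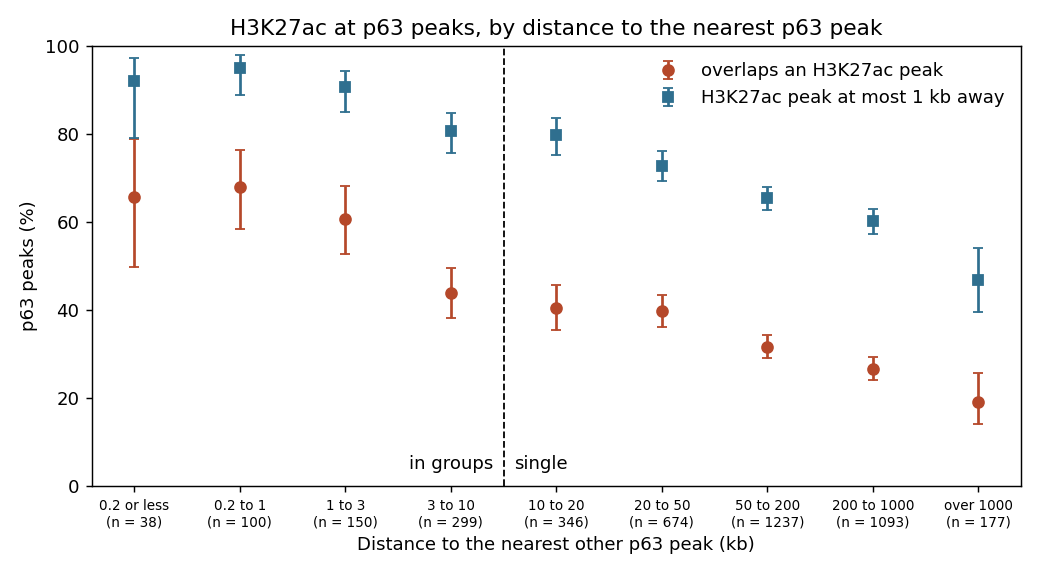
Percentage of p63 peaks (vertical axis) that overlap an H3K27ac peak (red circles) or have one at most 1 kb away (blue squares), by distance to the nearest other p63 peak (horizontal axis, kb, with the number of peaks in each class). Bars are Wilson 95% intervals and the dashed line is the 10 kb limit; overlap runs from 68.0% at 0.2 to 1 kb to 19.2% beyond 1000 kb, with 43.8% and 40.5% on either side of the limit.

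Peaks of 1 group tended to share their state. In the 247 groups of 2, both p63 peaks overlapped H3K27ac in 89 (36.0%), 1 of them in 85 (34.4%) and neither in 73 (29.6%). Where a peak overlapped H3K27ac its partner did in 67.7% of cases (178 of 263, each peak taken in turn), and where it did not, its partner did in 36.8% (85 of 231). For H3K27ac at most 1000 bases away the contrast was smaller, with 89.0% (380 of 427) and 70.1% (47 of 67). Pairs of all gap lengths are mixed here, and some pairs overlap 1 shared H3K27ac peak. The part of such shared peaks was not tested. Within a pair, the wider peak overlapped in 133 of 246 groups with unequal widths and the narrower in 130, although their median widths were 222 and 152 bases. In 44 groups only the wider peak overlapped and in 41 only the narrower. With only the widest 50% of p63 peaks in the list, 60.1% of grouped peaks overlapped H3K27ac. The excess over single peaks was then 18.6 percentage points, against 21.8 with all p63 peaks.

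Close neighbours met the same stretch of joined H3K27ac peaks more often than distant ones. Stretches were H3K27ac peaks joined across gaps of at most 1000 bases. They include the spaces between the joined peaks, so a p63 peak can meet a stretch without overlapping an H3K27ac peak. Both p63 peaks met the same stretch in 11 of 19 pairs of neighbours up to 200 bases apart (57.9%), in 37 of 50 at up to 1000 bases (74.0%), in 41 of 78 at up to 3000 bases (52.6%) and in 18 of 164 at up to 10000 bases (11.0%), each class starting where the one before it ends. Both overlapped an H3K27ac peak, the same or not, in 11, 25, 38 and 42 pairs of these classes. Both met the same single H3K27ac peak in 26 of the 311 pairs, namely 9, 13, 4 and 0 in the same classes. The counts of shared stretches and shared peaks partly follow from the gap itself. Neighbours that both overlap H3K27ac always meet the same stretch where the pair spans at most 1000 bases from first start to last end. For any pair, a shared stretch or H3K27ac peak must be longer than the gap. How much of the trend the gap length accounts for was not tested. Between the p63 peaks, a median of 100% of the gap was under H3K27ac in the closest class, where 6 of 19 pairs had none, then 69.8%, 49.7% and 13.4%. Pooled over the bases of all gaps in a class, the values were 66.4%, 62.0%, 47.9% and 21.8%. For the 199 pairs of neighbours over 10000 and up to 20000 bases apart the median was 8.96% and the pooled value 14.8%.

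The H3K27ac peaks at grouped p63 peaks were wider than those at single ones. Those that overlapped a grouped p63 peak numbered 325, with a median of 624 bases (quartiles 345 and 1101). The 1217 that overlapped a single p63 peak had 420 (quartiles 227 and 744), and the 530 that lay inside groups without touching p63 had 265. All 183757 H3K27ac peaks had a median of 191 bases. A width of 2000 bases or more was reached by 9.23% of those at grouped p63 peaks (30), 4.03% of those at single p63 peaks (49) and 0.273% of the whole list (502). A wider H3K27ac peak has more room to meet a p63 peak, and more so where p63 peaks lie close together. These widths thus partly follow from how the H3K27ac peaks were picked. The part of H3K27ac peak width in the overlap counts was not tested.

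A minority of groups had no H3K27ac. No H3K27ac base lay inside 24 groups, all of 2 p63 peaks, with a median span of 4011 bases. For 15 of them an H3K27ac peak lay within 1000 bases of the group, and for 7 none lay within 5000. The longest was chr12:92892954-92901648, 3876 bases from the nearest H3K27ac peak, followed by chr2:16762994-16771590 (10612 bases), chr12:57420061-57427136 (15073), chr19:44746629-44753574 (68) and chr13:59066128-59072933 (12123). The group farthest from H3K27ac was chr7:143635937-143639134, 18810 bases away, with p63 peaks of 180 and 233 bases. Because the depth of the H3K27ac library is unknown, these groups are not shown to lack acetylation.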

How the data were processed

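Peak positions were read from 3-column lists of p63 and H3K27ac. Bowtie 1.1.1, MACS2 2.1.0 and the build mm9 are named per the submitters' processing notes. Settings and threshold were not given in the sources used here. As deposited, the lists hold peak positions only. How depth and threshold affect the groups and their coverage was not tested.

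Peaks were chained at most 10000 bases apart with Python 3.11.15, numpy 2.4.6 and pandas 2.3.3, and Wilson intervals came from scipy 1.17.1. Overlap needed 1 shared base. Distance was the number of bases between edges, and flanks had the span of the group on each side. The geometry functions were tested on simulated intervals against base-by-base counting. Named groups followed a fixed rule: those of 4 or more p63 peaks, the 5 with most H3K27ac bases, the 5 of 3 or more p63 peaks with highest coverage, the 5 longest without H3K27ac, the 3 farthest from H3K27ac, and the 3 closest, the 3 widest and the 3 just excluded pairs. The members and results were chosen with earlier results of these data known. The stretches by gap, nearest-peak classes, partner states and equal-distance comparison were chosen after the lists were seen. No test was run, since each list is 1 library. No gene or sequence is given, because no mm9 genome was used here. Alternatives covered distance, edges, peak width, windows, chromosome X, overlap and flanks.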

Additional observations from a re-analysis of the deposited data

How the results depend on the processing

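Values without a test were compared with their Wilson or order-statistic 95% interval, counts with a range of 1.5 times, and the gap-side minus outer-side difference with a range of 1 percentage point. For the grouped minus single difference in overlap, the interval was that of the grouped share alone, shifted to the difference. It leaves out the counting error of the single peaks. Of 93 alternatives, 54 stayed within these limits. With neighbours at most 5000 bases apart, 387 p63 peaks were in groups, 58.9% of them overlapped H3K27ac, and coverage inside was 42.7% (median) and 38.5% (pooled). With 20000 bases there were 423 groups with 933 peaks, 48.8% overlap, coverage of 15.7% (median) and 18.7% (pooled), and a median difference from the flanks of 2.96 points. With only the widest 50% of p63 peaks there were 76 groups with 158 peaks, 60.1% overlap, coverage of 37.1% and 31.4%, and a difference of 12.9 points. The overlap was 86.4% within 1000 bases, 32.2% for the p63 midpoint and 65.6% with joined H3K27ac peaks, which gave coverage of 45.4% and 39.2%. With only the widest 50% of H3K27ac peaks 85.1% of groups held H3K27ac and pooled coverage was 24.8%; with groups extended by 1000 bases these were 96.7% and 29.8%. Flanks of 10000 bases and flanks starting 1000 bases away gave differences of 15.8 and 14.3 points. Pooled coverage, whose interval over bases is very narrow, was 27.2% with midpoints, 26.4% with no window left out, 27.1% without chromosome X and 26.8% with p63 peaks at most 200 bases apart merged first, a setting chosen after seeing the data. The overlap of grouped peaks exceeded that of single ones in all 11 alternatives, by 15.6 to 26.4 percentage points. No paired analysis was possible because there is just 1 library of each kind. Depth is unknown, so peaks below the authors' threshold are not seen.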
